A study of Homo sapiens with 18 samples.

Results

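The 58 genes described here encode the machinery of mitosis, the stage of the cell cycle at which duplicated chromosomes are pulled apart. They cover the transcription factors that switch mitotic genes on, cyclins and kinases, the spindle and its motors, kinetochores, the spindle checkpoint, anaphase, cytokinesis and chromosome condensation. Members were picked by gene symbol. No measured value entered the rule, but the list was chosen with earlier results of these data known. All 58 were among the 60649 genes of the count table, and all 58 passed the low-count filter, which kept 15390 genes.

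RNA was counted per gene in LNCaP cells, an established human prostate cancer line that responds to androgen. Each of 6 groups held 3 libraries: UPF1 siRNA with R1881, RCOR1 siRNA with R1881, control siRNA with R1881, UPF1 siRNA with vehicle, RCOR1 siRNA with vehicle, and control siRNA with vehicle. R1881 is a synthetic androgen, given at 5 nM, and the vehicle was ethanol. UPF1 is the RNA helicase at the centre of nonsense-mediated decay, and RCOR1 (CoREST) is a scaffold of a chromatin repressor complex. In all 6 groups the cells were transfected, moved to androgen-deprived medium on the following day, treated, and collected 48 h after treatment began. The siRNAs were pools, all libraries came from a single cell line, and total RNA depleted of ribosomal RNA was sequenced.

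As background, mitotic genes are silent in resting cells and are switched on late in the cell cycle. MYBL2 and then FOXM1, working with the MuvB complex, drive them at promoters that carry a cell cycle genes homology region (CHR), often beside CCAAT boxes, which bind NF-Y. Cyclin B with CDK1 starts mitosis, kinetochores attach chromosomes to spindle microtubules, and the checkpoint holds anaphase back until the chromosomes are attached. CDC20 with the anaphase-promoting complex then releases separase, which cuts the links between sister chromatids.

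Library totals ranged from 10299607 to 17338235 counts. Each siRNA lowered its target in R1881: UPF1 averaged 26.3 ± 0.674 CPM with UPF1 siRNA and 149 ± 13.1 CPM with control siRNA, and RCOR1 averaged 12.5 ± 0.296 CPM with RCOR1 siRNA and 79.7 ± 9.96 CPM with control siRNA (SD, n = 3 each). CPM is the count scaled to a common library total. The same held in vehicle, where UPF1 averaged 22.8 ± 2.79 CPM with UPF1 siRNA and 134 ± 17.5 CPM with control siRNA, and RCOR1 averaged 12.8 ± 3.44 CPM with RCOR1 siRNA and 99.6 ± 8.82 CPM with control siRNA. UPF1 was also lower with RCOR1 siRNA than with control siRNA in R1881 (log2 fold change -0.36, SE 0.11, adjusted p = 0.0405 by edgeR), and was not called in vehicle (-0.32, adjusted p = 0.0672 by edgeR), although its libraries did not overlap there. The 8 luminal prostate markers summed to between 59324 and 212527 counts per library. Markers of leukocytes summed to at most 13 counts, of basal epithelium to at most 108, of fibroblasts to at most 202, of neuroendocrine cells to at most 310 and of endothelium to at most 404, and each of these lists had 1 marker at 0 in all libraries. Replicates 1 and 2 of UPF1 siRNA with R1881 stood apart. Genes with under 40% GC content sat at a median of -0.77 and -0.58 (log2, relative to the mean of all libraries) in these libraries, against 0.05 in replicate 3 of that group and -0.34 to 0.46 elsewhere. The nuclear RNA MALAT1 was at 3761 and 4588 CPM in them, against 10830 to 35090 CPM in the others. The main counts that rest on this group are also given without these libraries, which leaves it with 1 library, or with each library's GC trend removed (a GC offset).

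The sequences upstream of the members show what many of them share. The RefSeq promoter table (GRCh38.p14) held a window of 250 bases before to 50 bases after the start for 49 members; AURKA, BIRC5, BUB3, CENPM, FOXM1, RACGAP1, TPX2, TTK and UBE2C had no entry. The CHR was searched as TTTGAA or TTCGAA and the NF-Y box as CCAAT, on both strands, and matches that overlapped another motif were still counted. A CHR was present in the windows of 38 of the 49 members (77.6%) and of 5298 of 27256 other genes (19.4%). A CCAAT box was present in 38 of the 49 members (77.6%) and in 39.7% of the other genes, and 29 members (59.2%) held both motifs, against 7.76% of the other genes. The windows of MYBL2, CCNA2, CCNB1, CDC25A, AURKB, KIF20A, KIF2C, CENPE, SPC24, PTTG1 and NCAPH held no CHR by these letters. All of these but CDC25A and CENPE were nonetheless called lower with R1881 under control siRNA. Some genes had several starts, and a match in any of their windows counted. From such genes the window with the most matches was taken for printing. The 120 bases before the start are printed for 6 members that fell with R1881 and for CDC25A, which was not called lower. They run 5′ to 3′ on the gene's strand, with CHR and CCAAT matches on either strand in capitals (ATTGG is CCAAT, and TTCAAA is TTTGAA, on the other strand). A match is a run of letters, and binding of a factor was not measured.
CCNB2, chr15:59105026-59105145, plus strand: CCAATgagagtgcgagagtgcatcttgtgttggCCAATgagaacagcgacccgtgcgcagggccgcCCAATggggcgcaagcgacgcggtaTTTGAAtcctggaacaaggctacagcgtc
CDK1, chr10:60778358-60778477, plus strand: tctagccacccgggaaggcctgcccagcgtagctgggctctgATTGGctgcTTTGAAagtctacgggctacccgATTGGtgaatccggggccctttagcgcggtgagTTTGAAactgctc
PLK1, chr16:23678769-23678888, plus strand: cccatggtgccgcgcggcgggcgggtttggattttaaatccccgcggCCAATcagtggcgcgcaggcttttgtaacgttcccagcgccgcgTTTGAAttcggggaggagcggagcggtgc
CDC20, chr1:43358861-43358980, plus strand: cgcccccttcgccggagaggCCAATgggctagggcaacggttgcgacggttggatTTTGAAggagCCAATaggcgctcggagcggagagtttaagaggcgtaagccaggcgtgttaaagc
CENPA, chr2:26785936-26786055, plus strand: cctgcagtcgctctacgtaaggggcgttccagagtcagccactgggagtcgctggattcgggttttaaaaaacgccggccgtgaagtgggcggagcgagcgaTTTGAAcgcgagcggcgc
ESPL1, chr12:53268179-53268298, plus strand: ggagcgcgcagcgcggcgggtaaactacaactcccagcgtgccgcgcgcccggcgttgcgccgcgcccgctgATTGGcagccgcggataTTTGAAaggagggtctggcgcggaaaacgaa
CDC25A, chr3:48188418-48188537, minus strand: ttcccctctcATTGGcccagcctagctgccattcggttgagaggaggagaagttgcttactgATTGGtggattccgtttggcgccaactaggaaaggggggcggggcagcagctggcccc

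Summed over the 58 genes, mitotic RNA was lowest with UPF1 siRNA and R1881 and highest with control siRNA and vehicle. The summed level averaged 429 ± 11.9 CPM with UPF1 siRNA and R1881, 919.8 ± 106 CPM with RCOR1 siRNA and R1881, and 1094 ± 113 CPM with control siRNA and R1881 (SD, n = 3 each). In vehicle it averaged 1027 ± 343 CPM with UPF1 siRNA, 1645 ± 211 CPM with RCOR1 siRNA and 2731 ± 226 CPM with control siRNA. The libraries of UPF1 siRNA with R1881 lay below all others, those of control siRNA with vehicle above all others, and those of RCOR1 siRNA with vehicle next below these. The remaining 3 groups overlapped, with UPF1 siRNA and vehicle spread from 685.1 to 1371 CPM. In bulk RNA, fewer dividing cells and less mitotic RNA per cell cannot be told apart, which holds for every result here.

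**Figure D1:**
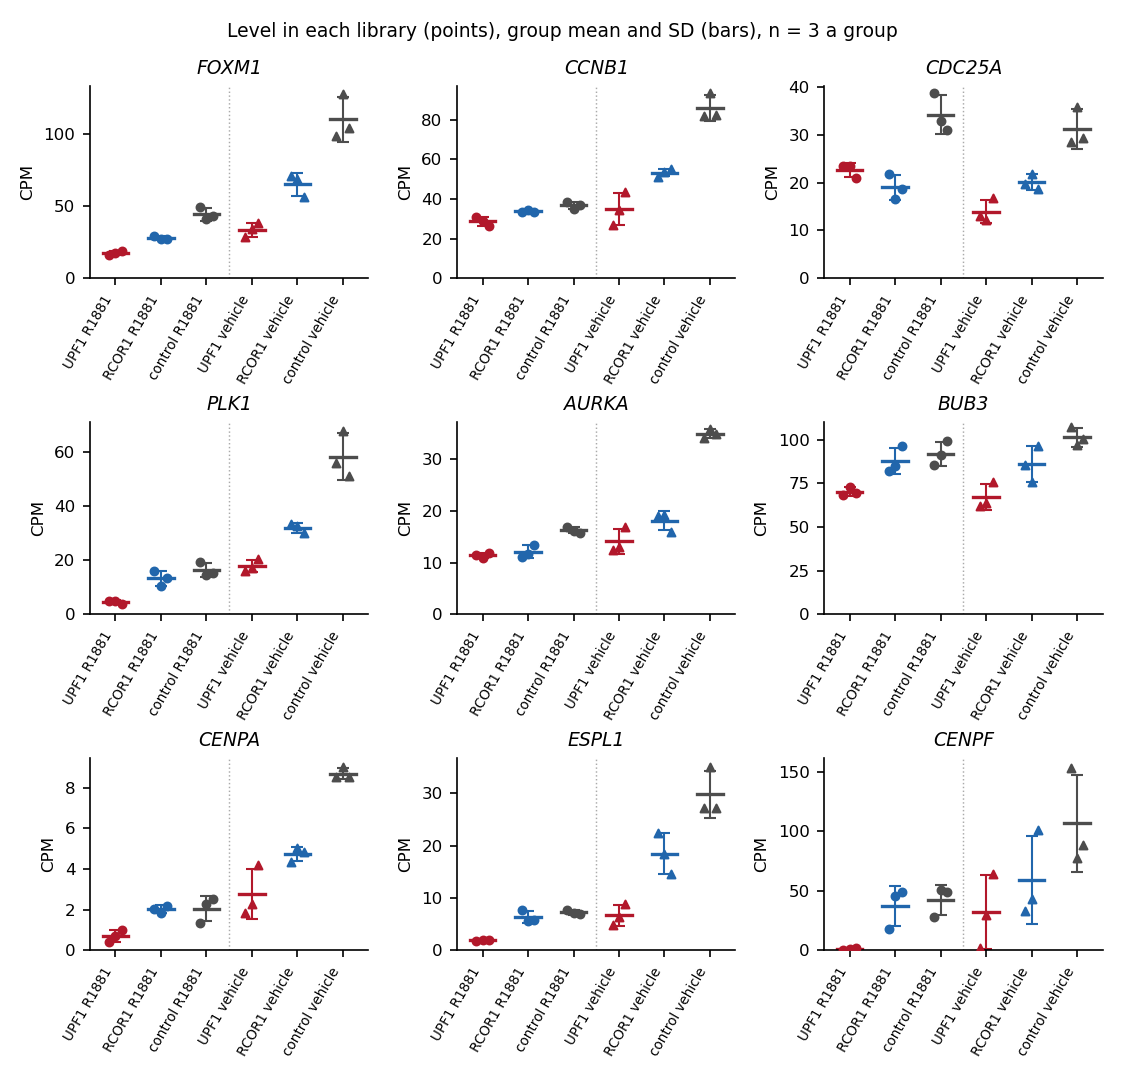
Level in CPM (vertical axes) of 9 members in each of the 18 libraries, R1881 groups left of vehicle groups; points are libraries, horizontal bars group means and whiskers SDs (n = 3). FOXM1, PLK1, AURKA, CENPA and ESPL1 were highest with control siRNA and vehicle, while BUB3 stayed between 62.2 and 108 CPM in every library.

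R1881 against vehicle under control siRNA shows what the androgen did to mitotic genes when neither target was depleted. Of the 58 members, 51 fell and none rose, at an adjusted p below 0.05 in edgeR's quasi-likelihood test with Benjamini-Hochberg adjustment over all 15390 genes; 17.6% of all genes tested fell. The median log2 fold change was -1.51 over the members, a 2.85-fold lower level, and 0.02 over all genes tested. In 56 of the 58 members every R1881 library lay below every vehicle library, as it did for 21.1% of all genes tested. Under scaling by library size only, all genes tested had a median of -0.22 and 26.5% of all calls were higher in R1881, against 53.3% with TMM scaling; 54 members then fell and none rose.

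The transcription factors that head the programme fell. FOXM1, the forkhead factor of late mitotic genes, had 49.4, 40.8 and 42.8 CPM in R1881, against 98.3, 127 and 104 CPM in vehicle. The groups did not overlap, and FOXM1 was 2.48-fold lower (log2 fold change -1.31, SE 0.13, adjusted p = 5.58e-07 by edgeR); genes on the opposite strand overlap 15.9% of its exons, and whether counting used strand is not given in the sources used here. MYBL2, which acts before FOXM1 on mitotic promoters, had 28.7, 23.8 and 24.4 CPM in R1881, against 66.2, 99.7 and 71.8 CPM in vehicle, also without overlap (log2 fold change -1.63, SE 0.18).

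Among cyclins, CDK1 and the CDC25 phosphatases, 6 of 7 fell. CCNB1, the cyclin that activates CDK1 at mitotic entry, had 38.4, 35 and 37.2 CPM in R1881, against 82, 93.5 and 82.4 CPM in vehicle (log2 fold change -1.22, SE 0.13). CDK1, the mitotic kinase, had 32.2, 42 and 51.4 CPM in R1881, against 116, 89.8 and 105 CPM in vehicle (log2 fold change -1.31, SE 0.25). Both were below their vehicle libraries throughout, and CCNA2, the cyclin of S phase and early mitosis, fell by 1.84 on the log2 scale. The exception was CDC25A, a phosphatase that activates cyclin-dependent kinases and also acts at entry to S phase (gene at chr3:48157146-48188402, minus strand, GRCh38). It had 38.7, 32.8 and 30.9 CPM in R1881, against 28.4, 35.9 and 29.2 CPM in vehicle. The groups overlapped and the test gave no call (log2 fold change 0.13, SE 0.14, adjusted p = 0.494 by edgeR).

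All 6 polo and aurora kinases and partners fell, and so did all 4 subunits of the chromosomal passenger complex. PLK1, the kinase of centrosome maturation and mitotic entry, had 19.2, 14.6 and 15.3 CPM in R1881, against 56, 67.7 and 51 CPM in vehicle (log2 fold change -1.83, SE 0.15, adjusted p = 1.14e-07 by edgeR). AURKA, the centrosomal aurora kinase, had 17, 16.2 and 15.8 CPM in R1881, against 34.2, 35.9 and 34.8 CPM in vehicle (log2 fold change -1.10, SE 0.11). Neither gene's groups overlapped, and TPX2, the activator of AURKA on the spindle, fell by 1.70 on the log2 scale (SE 0.14). AURKB, the kinase of the passenger complex, fell by 1.76 (SE 0.20), and BIRC5 (survivin), which helps place the complex at centromeres, fell by 1.48 (SE 0.17).

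The largest falls of single genes were in CENPA and ESPL1, while medians by role lay closer together. The median was -1.62 for centromere and kinetochore genes, -1.64 for polo and aurora kinases with partners and -1.58 for the passenger complex. CENPA, the histone H3 variant that marks centromeres (gene at chr2:26764289-26801067, plus strand, GRCh38), had 1.37, 2.26 and 2.53 CPM in R1881, against 8.55, 9.02 and 8.53 CPM in vehicle. It fell most of the 58, to a 4.26-fold lower level (log2 fold change -2.09, SE 0.27, adjusted p = 9.92e-06 by edgeR), on raw counts of 7 to 130 per library over the series. ESPL1, the separase that cuts cohesin, had 7.71, 7.09 and 6.96 CPM in R1881, against 27.3, 35 and 27.1 CPM in vehicle (log2 fold change -2.04, SE 0.20). All 5 genes grouped under anaphase and separation, CDCA3 (a trigger of mitotic entry) among them, fell, with a median of -1.72. They include CDC20, the activator of the anaphase-promoting complex (log2 fold change -1.75, SE 0.20), UBE2C, a ubiquitin-conjugating enzyme that works with it (log2 fold change -1.57, SE 0.19), and PTTG1 (securin), the inhibitor of separase (log2 fold change -1.32, SE 0.20). Of 8 centromere and kinetochore genes 6 fell, among them NDC80, a microtubule-binding subunit of the outer kinetochore (log2 fold change -1.80, SE 0.29).

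The spindle motors fell together. All 9 kinesins were lower, with log2 fold changes between -1.88 and -1.33. KIFC1, a minus-end motor that bundles spindle microtubules, fell by 1.86 (SE 0.18), KIF2C, a microtubule depolymerase at centromeres, by 1.88 (SE 0.17), and KIF20A, a motor of cytokinesis, by 1.53 (SE 0.20). KIF11, which pushes spindle poles apart, had 8.94, 14.3 and 14.5 CPM in R1881, against 50.6, 25 and 30.7 CPM in vehicle (adjusted p = 0.00437 by edgeR). Of 5 spindle checkpoint genes 4 fell, among them the kinase BUB1 (log2 fold change -1.44, SE 0.20), MAD2L1, the inhibitor of CDC20 (log2 fold change -1.47, SE 0.29), and the kinase TTK (log2 fold change -1.28, SE 0.43). The fifth, BUB3, which carries BUB1 to kinetochores, had 85.4, 91.4 and 99.2 CPM in R1881, against 108, 96.8 and 100.3 CPM in vehicle. Its groups overlapped and it was not called (log2 fold change -0.14, SE 0.10).

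Cytokinesis genes fell in 4 of 5 cases, and condensin, topoisomerase and Ki-67 genes in 5 of 7. TOP2A, the topoisomerase that untangles chromatids, had 21.4, 34.6 and 37.8 CPM in R1881, against 140.5, 73 and 101 CPM in vehicle (log2 fold change -1.75, SE 0.44). MKI67, the proliferation antigen Ki-67, had 46.6, 79.7 and 82.6 CPM in R1881, against 254, 138 and 165 CPM in vehicle (log2 fold change -1.42, SE 0.36). Neither overlapped, and the condensin subunit NCAPG also fell, by 1.70 (SE 0.40), with 33.1% of its exons overlapped by LCORL on the other strand. The other members not called were the kinetochore motor CENPE (-1.20, SE 0.62), the kinetochore protein CENPF (-1.33, SE 0.71), ECT2, which activates RhoA in cytokinesis (-1.02, SE 0.43), and the condensin ATPases SMC2 (-0.92, SE 0.52) and SMC4 (-1.03, SE 0.42). In each of these 5 the R1881 libraries all lay below the vehicle libraries. With the GC offset only CDC25A (0.12) and BUB3 (-0.20) were not called.

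**Figure D2:**
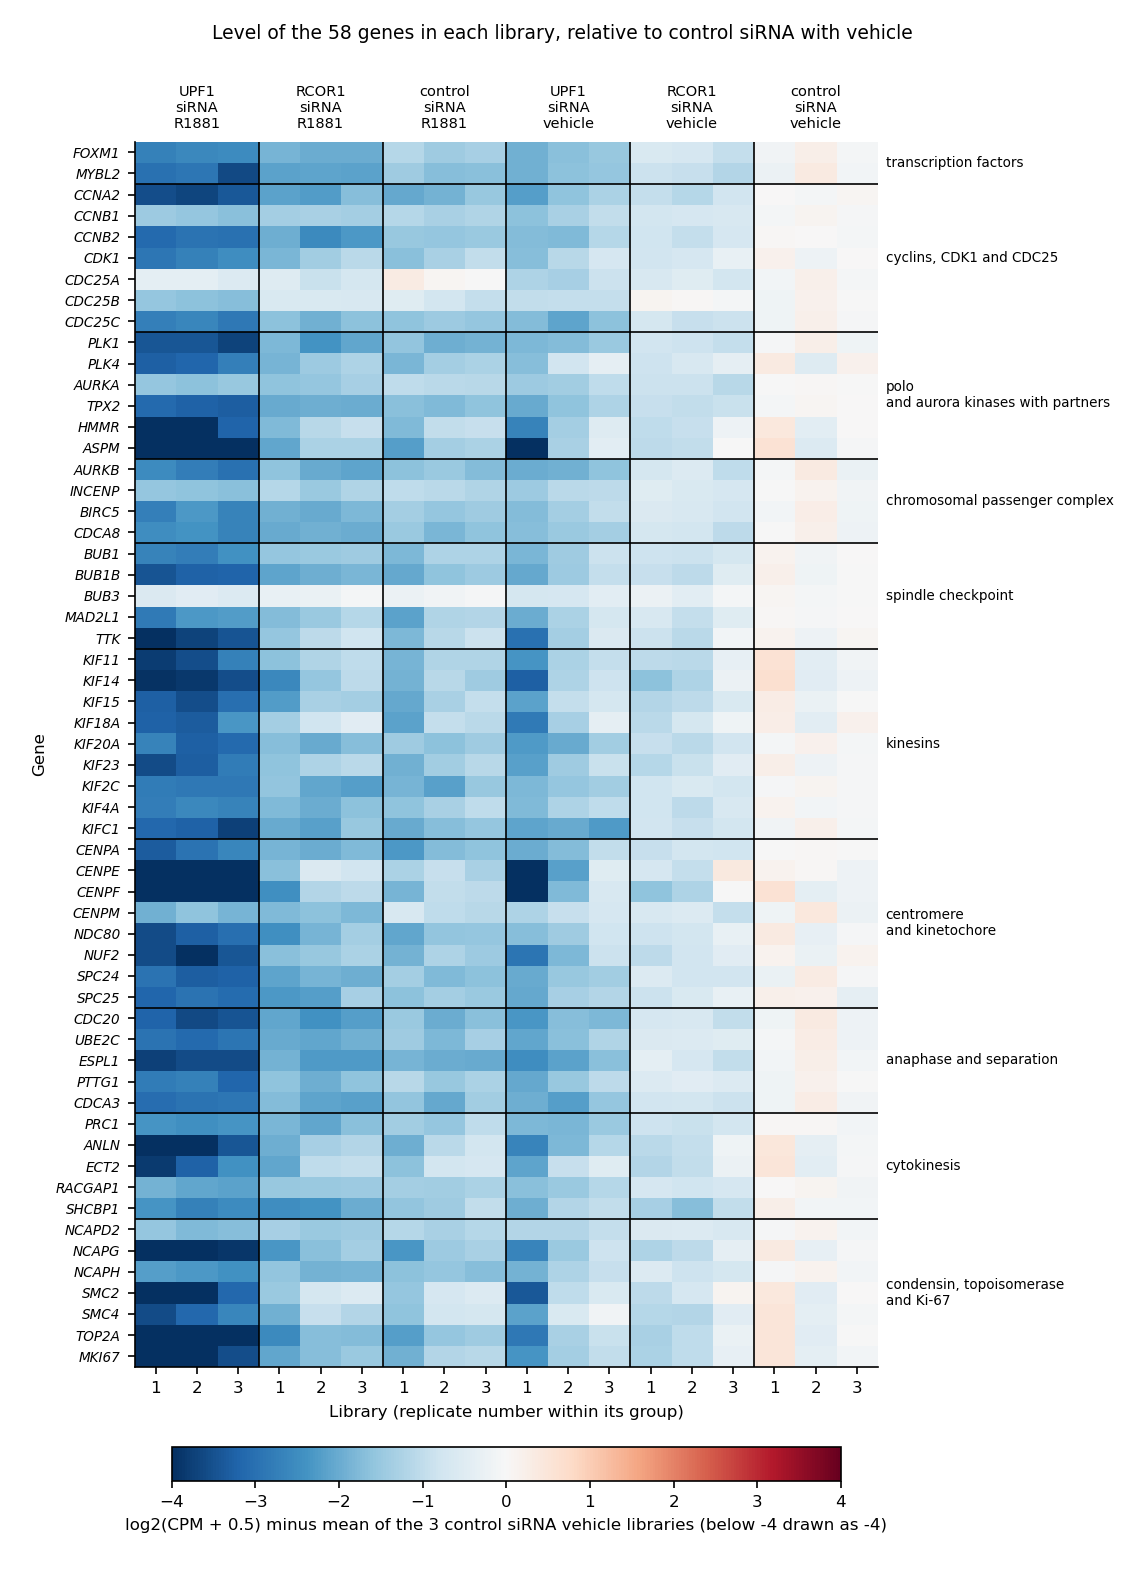
Each row is a member, grouped by role, and each column a library; colour gives log2(CPM + 0.5) minus the mean of the control siRNA vehicle libraries, with values below -4 drawn as -4. The UPF1 siRNA R1881 libraries form the lowest block, most of all in ASPM, CENPE and CENPF.

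Under UPF1 siRNA, R1881 lowered 54 of the 58 members, where 20% of all genes tested fell, and raised 1, CDC25A, where 21.6% of all genes tested rose. The median log2 fold change was -1.60 over the members and -0.01 over all genes tested. CDC25A had 23.5, 23.4 and 21 CPM with R1881, against 13, 12.1 and 16.7 CPM with vehicle. Its groups did not overlap, and it was 1.62-fold higher (log2 fold change 0.70, SE 0.14, adjusted p = 0.000942 by edgeR). Without replicates 1 and 2 of UPF1 siRNA with R1881, 38 members fell, 56 of the 58 values were below 0 with a median of -1.57, and CDC25A was not called (log2 fold change 0.56, adjusted p = 0.096 by edgeR); the lone library left was assumed to vary like the other groups. Under scaling by library size only, 37.3% of all calls were higher in R1881, against 51.9% with TMM scaling.

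The members that fell most were AT-rich genes of the spindle, the kinetochore and chromosome condensation. CENPF had 0.581, 0.98 and 1.62 CPM with R1881, against 1.97, 29.8 and 64.5 CPM with vehicle (log2 fold change -4.97, SE 0.99). ASPM, a spindle pole protein, fell by 5.15 (SE 0.96), CENPE by 3.60 (SE 0.91), TOP2A by 3.53 (SE 0.52) and NCAPG by 3.20 (SE 0.51). The vehicle libraries of CENPF differed widely, with replicate 1 close to the R1881 libraries, and the CENPE groups overlapped. With the GC offset the log2 fold changes were -4.49 for CENPF, -4.37 for ASPM and -2.65 for CENPE. Without replicates 1 and 2 of the R1881 group CENPF (-4.32) and CENPE (-3.23) were not called.

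Members of higher GC content fell by less. The 29 members below 45.75% GC had a median log2 fold change of -2.40 and the 29 at or above it -1.23, while over all genes tested the medians were -0.26 below and 0.10 at or above that content. Without replicates 1 and 2 of UPF1 siRNA with R1881 the members' medians were -1.93 below and -1.42 at or above that content, and with the GC offset -1.99 and -1.30. Under control siRNA the corresponding medians of the members were -1.50 and -1.57, and under RCOR1 siRNA -0.73 and -1.16. Among GC-rich members under UPF1 siRNA, PLK1 had 4.94, 4.9 and 4.0 CPM with R1881, against 16.2, 17.1 and 20.6 CPM with vehicle (log2 fold change -1.95, SE 0.17), and ESPL1 had 1.74, 2.03 and 2.04 CPM with R1881, against 4.87, 6.32 and 8.88 CPM with vehicle (log2 fold change -1.79, SE 0.24). Neither overlapped, and the passenger complex fell in all 4 subunits, with a median of -1.07. The part of GC content in these differences was not tested beyond the offset.

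**Figure D3:**
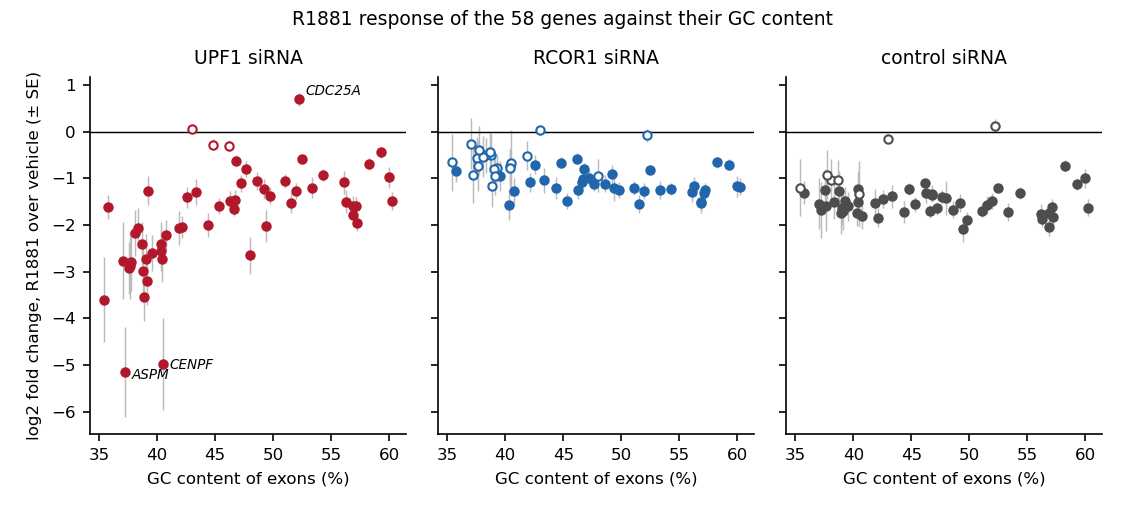
R1881 against vehicle log2 fold change (vertical axis, bars are SEs) of each member against the GC content of its exons in percent (horizontal axis), with a panel for each siRNA. Under UPF1 siRNA the members below 45.75% GC had a median of -2.40 and the others -1.23, while under control siRNA the medians were -1.50 and -1.57; without UPF1 siRNA R1881 replicates 1 and 2 (not drawn) the UPF1 siRNA medians were -1.93 and -1.42.

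The members not called under UPF1 siRNA were CCNB1, AURKA and BUB3. CCNB1 had 31.1, 29 and 26.5 CPM with R1881, against 27.1, 34.4 and 43.4 CPM with vehicle (log2 fold change -0.27, SE 0.13). AURKA had 11.6, 11 and 11.9 CPM with R1881, against 12.4, 13 and 17 CPM with vehicle (log2 fold change -0.30, SE 0.12). CCNB1 overlapped between the groups and AURKA did not. BUB3 was at a log2 fold change of 0.06 (SE 0.10).

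Under RCOR1 siRNA, R1881 lowered 37 of the 58 members and raised none, where 14.9% of all genes tested fell. The median was -0.95 over the members and 0.02 over all genes tested. All 5 genes of the anaphase group and all 4 passenger complex subunits fell. Calls were fewer among kinesins (4 of 9), checkpoint genes (2 of 5) and condensin, topoisomerase and Ki-67 genes (2 of 7). The calls also split by GC content. Of 29 members at or above 45.75% GC 27 fell, and of 29 below it 10, where 18.6% and 8.71% of all genes tested fell. With the GC offset the members' medians were -1.12 and -0.95. Whether the roles differ apart from GC content was not tested. CDC20 had 12.3, 9.56 and 11.3 CPM with R1881, against 33.3, 34.1 and 26.6 CPM with vehicle (log2 fold change -1.50, SE 0.20). ESPL1 had 7.7, 5.7 and 5.78 CPM with R1881, against 22.4, 18.5 and 14.6 CPM with vehicle (log2 fold change -1.53, SE 0.20). Neither overlapped, and the other large falls were in SPC25, a subunit of the NDC80 complex (-1.57), UBE2C (-1.54) and CCNB2, another B-type cyclin (-1.48). The members not called were ANLN, ASPM, BUB3, CDC25A, CENPE, CENPF, ECT2, HMMR, KIF11, KIF14, KIF15, KIF18A, KIF23, MAD2L1, MKI67, NCAPG, NUF2, SMC2, SMC4, TOP2A and TTK, with log2 fold changes between -1.17 (TOP2A) and 0.03 (BUB3). With the GC offset 52 members fell, and all genes called in either direction numbered 6325, against 4796 in the main fit. Under scaling by library size only, 29.3% of all calls were higher in R1881, against 52.3% with TMM scaling.

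**Figure D4:**
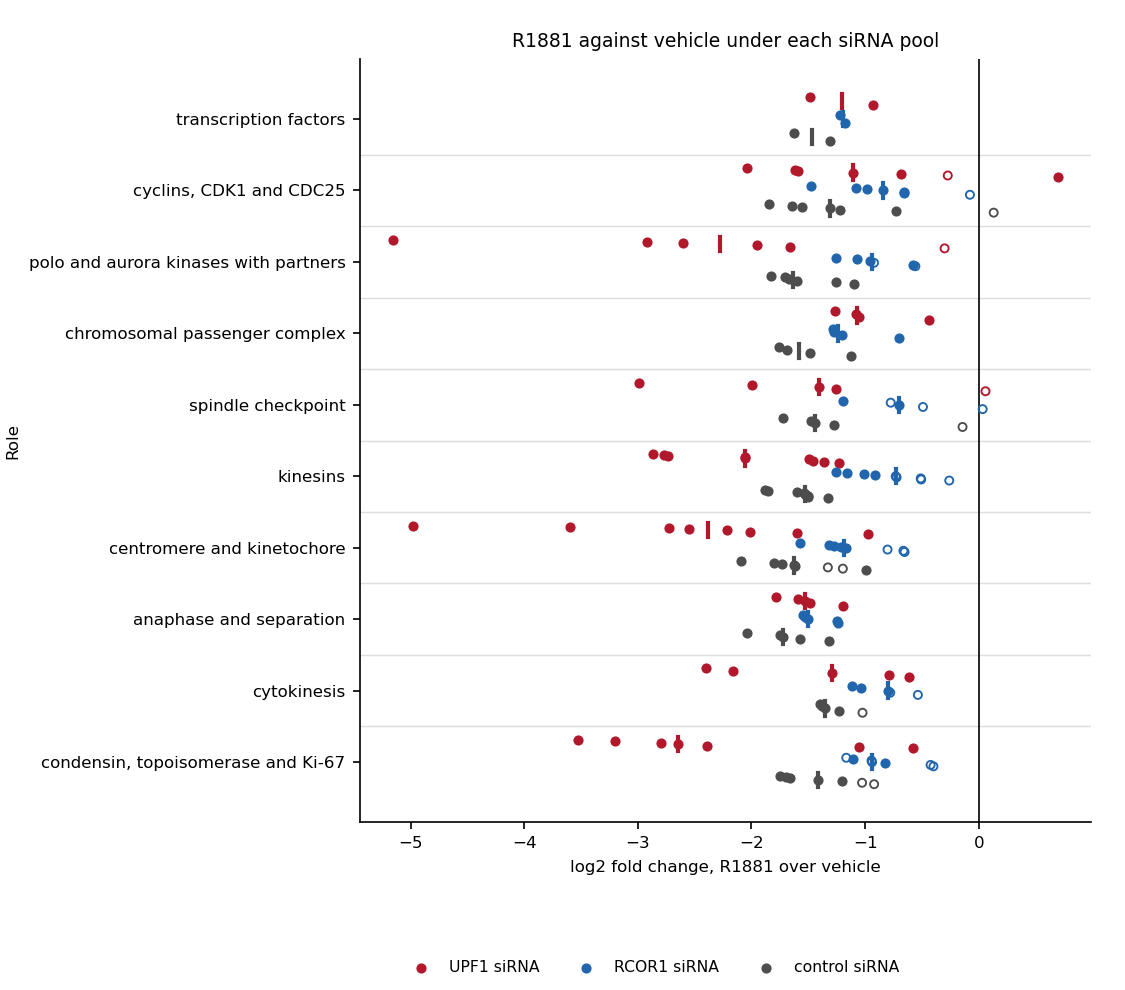
R1881 against vehicle log2 fold change of each member, grouped by role, under UPF1, RCOR1 and control siRNA; filled points passed an adjusted p of 0.05, open points did not, and ticks are medians. Under UPF1 siRNA the values ran from -5.15 (ASPM) to 0.70 (CDC25A), and under control siRNA from -2.09 (CENPA) to 0.13 (CDC25A).

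UPF1 siRNA was also set against control siRNA in vehicle, without androgen. Only siRNA pools were used, so loss of a target and other effects of its pool cannot be told apart. Of the 58 members 52 fell and none rose, where 16% of all genes tested fell; the medians were -1.52 over the members and 0.03 over all genes. These comparisons and those of R1881 under control siRNA share control libraries, so their values stand side by side without a measure of likeness. KIFC1 had 3.68, 3.95 and 3.25 CPM with UPF1 siRNA, against 15.9, 20.3 and 16.3 CPM with control siRNA (log2 fold change -2.27, SE 0.19, adjusted p = 2.95e-07 by edgeR). FOXM1 had 28.4, 34.1 and 38.2 CPM with UPF1 siRNA, against 98.3, 127 and 104 CPM with control siRNA (log2 fold change -1.71, SE 0.13). Neither overlapped, and ESPL1 fell by 2.16, AURKB by 2.0, CDC20 by 1.97 and CDCA3, a trigger of mitotic entry, by 1.97. CDC25A, not called for R1881 under control siRNA, had 13, 12.1 and 16.7 CPM with UPF1 siRNA, against 28.4, 35.9 and 29.2 CPM with control siRNA (log2 fold change -1.16, SE 0.14). Not called were ASPM (-1.43), KIF18A (-1.40), CENPF (-1.74), ECT2 (-1.10), SMC2 (-1.33) and SMC4 (-0.81).

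In R1881 all 58 members were lower with UPF1 siRNA than with control siRNA, where 15.7% of all genes tested fell. The median was -1.65 over the members. CENPA had 0.406, 0.70 and 1.02 CPM with UPF1 siRNA, against 1.37, 2.26 and 2.53 CPM with control siRNA (log2 fold change -1.57, SE 0.36). CENPF fell by 5.38 and ASPM by 4.91, and at the other end CCNB1 fell by 0.35, BUB3 by 0.39 and NCAPD2, a condensin subunit named here after its value was seen, by 0.48. The remaining genes of the 5 largest falls were CENPE (-4.09), TOP2A (-3.32) and SMC2 (-3.20). The members' medians were -2.24 below 45.75% GC and -1.42 at or above it, against -0.17 and 0.07 over all genes tested. With the GC offset the members' medians were -1.79 and -1.47. With only replicate 3 of UPF1 siRNA with R1881 they were -1.71 and -1.39, with CENPF at -4.74 and ASPM at -4.77. The part of GC content was not tested further. Without replicates 1 and 2 of UPF1 siRNA with R1881, 35 members were called with 1 library left in that group, while all 58 values stayed below 0 with a median of -1.60. Scaling by library size only put 67.1% of all calls higher with UPF1 siRNA, against 52.8% with TMM scaling.

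RCOR1 siRNA lowered 31 of the 58 members in vehicle and raised none, where 6.21% of all genes tested fell. The median was -0.79 over the members and -0.01 over all genes tested. FOXM1 had 70.7, 68.8 and 56.1 CPM with RCOR1 siRNA, against 98.3, 127 and 104 CPM with control siRNA (log2 fold change -0.75, SE 0.13). AURKA had 19.1, 19.2 and 16 CPM with RCOR1 siRNA, against 34.2, 35.9 and 34.8 CPM with control siRNA (log2 fold change -0.95, SE 0.11). Neither overlapped, and the largest falls were in SHCBP1, a midbody protein (-1.37), MYBL2 (-1.01), CCNA2 (-0.97), AURKA and KIF20A (-0.94). CDC25B, a phosphatase that activates CDK1, was at 0.02. The members not called were ANLN, ASPM, BUB3, CDC25B, CDK1, CENPE, CENPF, ECT2, HMMR, KIF11, KIF14, KIF15, KIF18A, KIF23, MAD2L1, MKI67, NCAPG, NDC80, NUF2, PLK4, PTTG1, SMC2, SMC4, SPC25, TOP2A, TTK and UBE2C. The calls split by GC content, with 25 of 29 members at or above 45.75% called lower and 6 of 29 below it. Both medians were -0.79, and 7.33% and 4.45% of all genes tested fell. With the GC offset 50 members fell, and with no low-count filter 49. All genes called in either direction then numbered 3565 and 1365, against 1772 in the main fit.

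In R1881 the same siRNA lowered 7 of the 58 members, where 7.33% of all genes tested fell; the median was -0.21 over the members and -0.01 over all genes. The 7 were SHCBP1 (-1.02), CENPM, a centromere protein (-0.95), CDC25A (-0.84), CCNB2 (-0.75), FOXM1 (-0.66), AURKA (-0.43) and PRC1, a microtubule crosslinker of the central spindle (-0.59). PRC1 was named after its value was seen, and overlapping genes cover 58.4% of its exons. CDC25A had 21.7, 16.6 and 18.7 CPM with RCOR1 siRNA, against 38.7, 32.8 and 30.9 CPM with control siRNA, without overlap (log2 fold change -0.84, SE 0.14). CENPA had 2.05, 1.84 and 2.2 CPM with RCOR1 siRNA, against 1.37, 2.26 and 2.53 CPM with control siRNA, and was not called. The other members not called lay between -0.52 (KIF4A) and 0.58 (KIF18A), apart from MYBL2 (-0.56), CDC20 (-0.55) and UBE2C (-0.54). The count was 4 without control siRNA R1881 replicate 1 or without RCOR1 siRNA R1881 replicate 1 or 2. Scaling by library size only put 67.7% of all calls higher with RCOR1 siRNA, against 40.8% with TMM scaling.

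**Figure D5:**
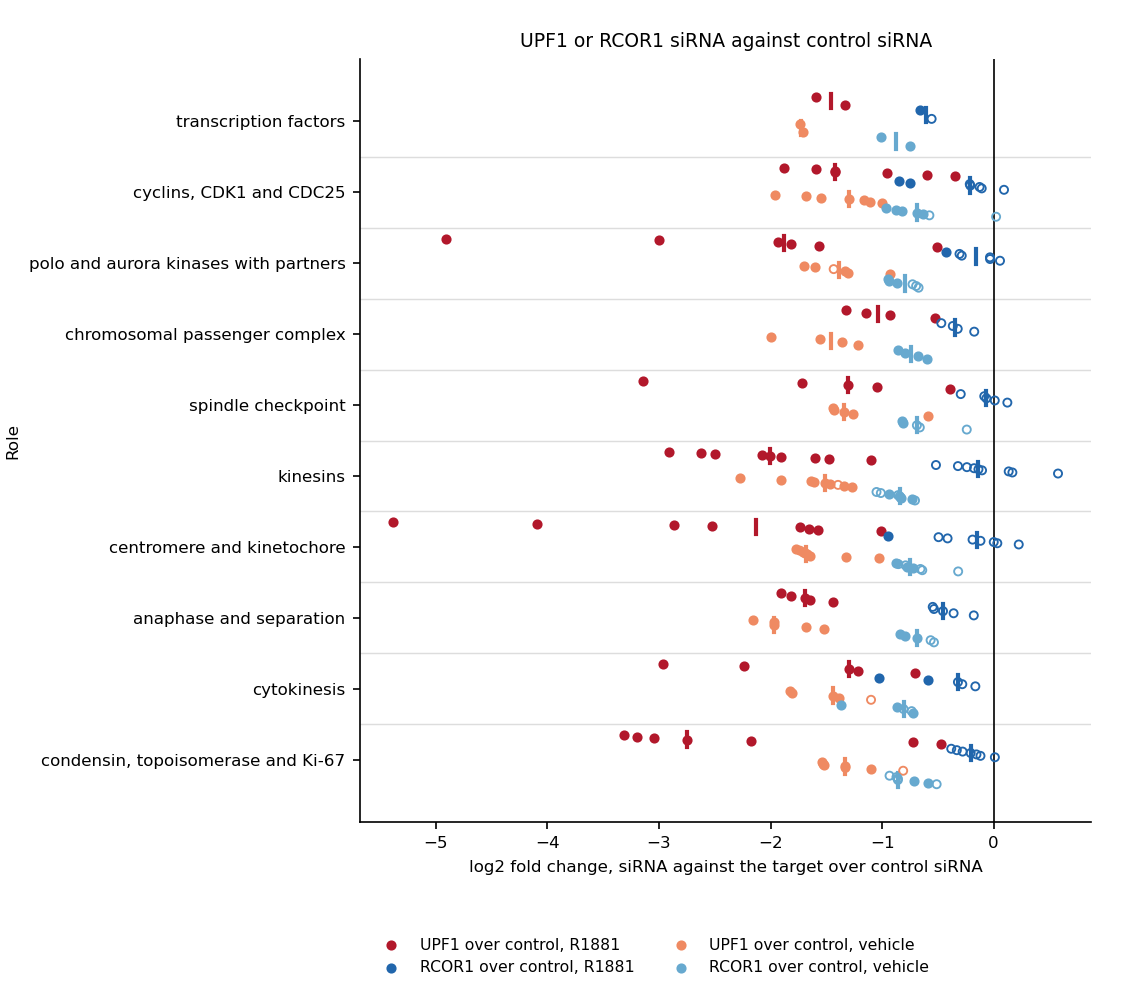
Log2 fold change of each member, grouped by role, for UPF1 siRNA and RCOR1 siRNA over control siRNA, in R1881 and in vehicle; filled points passed an adjusted p of 0.05, open points did not, and ticks are medians. The medians over all members were -1.65 and -1.52 for UPF1 siRNA in R1881 and vehicle, and -0.21 and -0.79 for RCOR1 siRNA.

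Whether R1881 acted differently under an siRNA was tested as an interaction, the R1881 log2 fold change under that siRNA minus the one under control siRNA. For UPF1 siRNA 5 members were called, all toward a smaller fall, where 1.35% of all genes tested were called in that direction. They were CCNB1 (difference 0.95, SE 0.18, adjusted p = 0.00969 by edgeR), AURKA (0.80, SE 0.16), RACGAP1, a central spindle protein of cytokinesis (0.74, SE 0.17), INCENP, the scaffold of the passenger complex (0.68, SE 0.17), and NCAPD2 (0.63, SE 0.13). The R1881 log2 fold change of CCNB1 was -0.27 under UPF1 siRNA and -1.22 under control siRNA, and that of AURKA -0.30 under UPF1 siRNA and -1.10 under control siRNA. Over all 58 the median difference was 0.02, with 28 below 0, and the lowest values, in CENPF (-3.65) and ASPM (-3.48), were not called. This median joins unlike parts: it was -1.10 for members below 45.75% GC and 0.30 for those at or above it. Over all genes tested the corresponding medians were -0.29 and 0.10. With the GC offset the members' medians were -0.45 and 0.26, and the part of GC content was not tested further. Without UPF1 siRNA R1881 replicates 1 and 2, with 1 library left in that group, none of the 5 was called, at differences of 0.82 for CCNB1, 0.85 for AURKA, 0.63 for RACGAP1, 0.62 for INCENP and 0.57 for NCAPD2. Leaving out single libraries gave between 1 and 7 calls. The count was 1 without UPF1 siRNA vehicle replicate 2, 2 without UPF1 siRNA R1881 replicate 1 or control siRNA R1881 replicate 2, and 3 without UPF1 siRNA R1881 replicate 2 or control siRNA vehicle replicate 1 or 2. Scaling by library size only put 75.2% of all calls above 0, against 49.6% with TMM scaling.

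For RCOR1 siRNA no member was called by edgeR or DESeq2, 17 had an unadjusted p below 0.05, and 0.767% of all genes tested were called in either direction. The median difference was 0.52, and 56 of the 58 values were above 0, the exceptions being CDC25A (-0.21) and CENPM (-0.17). KIF18A, a kinesin that dampens chromosome movement, had the highest difference (1.28, SE 0.78), on raw counts as low as 2. Scaling by library size only put 50.9% of all calls above 0, against 29.7% with TMM scaling.

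Set directly against each other, UPF1 siRNA gave lower mitotic RNA than RCOR1 siRNA. In vehicle 34 members were lower and none higher, where 14.9% of all genes tested were lower, with a median of -0.70. At or above 45.75% GC 27 of 29 members were called lower, and below it 7 of 29. The medians of these parts were -0.83 and -0.66, and 19.4% and 7.68% of all genes tested were lower. ESPL1 had 4.87, 6.32 and 8.88 CPM with UPF1 siRNA, against 22.4, 18.5 and 14.6 CPM with RCOR1 siRNA (log2 fold change -1.47, SE 0.20), and KIFC1 (-1.44), AURKB (-1.20), CDC20 (-1.18) and CDCA3 (-1.14) followed. The ESPL1 groups did not overlap, and the members not called were ASPM, BUB1, CDK1, CENPE, CENPF, CENPM, ECT2, HMMR, KIF11, KIF14, KIF15, KIF18A, KIF23, MAD2L1, MKI67, NCAPG, NDC80, NUF2, PLK4, SHCBP1, SMC2, SMC4, TOP2A and TTK. In R1881 the members' median was -1.28, with -2.17 below 45.75% GC and -1.03 at or above it. Over all genes tested the medians by GC content were -0.25 and 0.12. Of the members 53 were lower and none higher, where 18.8% of all genes tested were lower. The exceptions were CCNB1 (-0.22), CDC25A (0.25), AURKA (-0.08), CENPM (-0.06) and SHCBP1 (-0.28), and without UPF1 siRNA R1881 replicates 1 and 2, 27 were called lower, 57 of the 58 values were below 0 and the median was -1.38. The difference between the R1881 responses under UPF1 and RCOR1 siRNA gave no call by edgeR, where 1.69% of all genes tested were called. An unadjusted p below 0.05 was found in 27 members. DESeq2 called 12 members and 754 of the 15390 genes tested. Without UPF1 siRNA vehicle replicate 1 edgeR called 17 members and 639 genes. Without UPF1 siRNA R1881 replicate 3 it called 11 members and 1644 genes. The members' median difference was -1.63 below 45.75% GC and -0.03 at or above it. Over all genes tested these medians were -0.39 and 0.16. With the GC offset the members' medians were -1.03 and -0.14, and the part of GC content was not tested further.

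Other genes of the same processes, from lists of genes outside the 58, were counted in the same way under control siRNA. Of 32 further kinetochore and centromere genes 19 fell with R1881 and 1 rose, where 17.6% of all genes tested fell and 20.1% rose. HJURP, the chaperone that loads CENPA, fell by 1.69, and SKA1 and KNL1, of the outer kinetochore, by 1.69 and 1.61. CENPN, a reader of CENPA nucleosomes, rose by 4.19 (SE 0.07) under control siRNA, 4.02 under UPF1 siRNA (3.95 without replicates 1 and 2 of its R1881 group) and 4.12 under RCOR1 siRNA. Of 18 further spindle and cytokinesis genes 13 fell, led by the kinesin KIF18B (-2.03), the kinase NEK2 (-1.78) and NUSAP1 (-1.64), and 1 rose, the chromokinesin KIF22 (0.76). Of 14 genes of the anaphase-promoting complex and its regulators 2 fell and 3 rose, shares near those of all genes tested, with a median of 0.02; its inhibitor FBXO5 (EMI1) fell by 1.20. Of 12 condensin and cohesin genes 4 fell, led by CDCA5 (sororin, -1.72), and 1 rose, the condensin II subunit NCAPD3 (3.45, SE 0.09).

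With siRNA in vehicle the same lists gave 19 of 32, 14 of 18, 3 of 14 and 4 of 12 lower genes for UPF1 siRNA, and 13, 9, 0 and 3 for RCOR1 siRNA, where 16% and 6.21% of all genes tested fell. With UPF1 siRNA 18.5% of all genes tested rose; 3 genes of the anaphase-promoting complex list rose with UPF1 siRNA and no other gene of these lists rose. Of 13 genes of the MuvB and p53 axis, 5 fell and 2 rose with R1881 under control siRNA, with LIN9 (-1.21), RBL1 (-1.18) and E2F1 (-1.14) lowest and LIN37 (0.72) and LIN52 (0.63) higher. CDKN1A (p21), an inhibitor of cyclin-dependent kinases, rose with UPF1 siRNA in vehicle (0.95) and in R1881 (0.56), and with RCOR1 siRNA in vehicle (0.48) but was not called with it in R1881 (0.21). With R1881 it fell under UPF1 siRNA (-0.72) and RCOR1 siRNA (-0.59) and was not called under control siRNA (-0.32). Of 20 DNA replication genes 18 fell with R1881 under control siRNA, 12 under UPF1 siRNA (9 without replicates 1 and 2 of its R1881 group) and 15 under RCOR1 siRNA, where 17.6%, 20% and 14.9% of all genes tested fell in these comparisons. The largest falls under control siRNA were in TK1 (-1.95), TYMS (-1.82) and RRM2 (-1.68). In the UPF1 siRNA interaction 9 of the 20 were called above 0, as were 1.35% of all genes tested, led by the origin licensing factor CDC6 (1.33), GINS2 (1.17) and MCM7 (1.05). Without UPF1 siRNA R1881 replicates 1 and 2 none of the 20 was called, 19 were above 0, and the median was 0.57, against 0.65 with all libraries.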

How the data were processed

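Gene counts from 18 RNA-seq libraries, 3 in each of 6 groups, were used as deposited. Per the submitters' processing notes, reads were handled with bcl2fastq 2.20, STAR 2.7.9a and featureCounts (Subread 1.6.4) on GRCh38.p7; the sources used here name neither the annotation release nor the strand setting. Unspliced RNA that covers exons could enter these counts, because total RNA was depleted of ribosomal RNA and not selected for polyadenylation. Genes were filtered by edgeR's filterByExpr, scaled by TMM and tested with edgeR 4.0.16 (quasi-likelihood, R 4.3.3) in 1 model of 6 group means, with Benjamini-Hochberg adjustment over the 15390 genes tested and a threshold of 0.05. Log2 fold changes and SEs come from that model, and CPM uses the TMM-scaled totals. Positions, exon GC content and exon overlaps came from GENCODE 29 (GRCh38), and promoters from RefSeq GRCh38.p14.

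The members and the gene lists were chosen with earlier results of these data known. The genes named were 26 fixed members, the 5 with the largest change among those called in each comparison, and members not called or against the main direction. Of each list, the largest changes and genes called against its main direction were named. Any other was named after its value was seen, and not every such gene, CDKN1A among them, is marked in the text. The labels call the libraries biological triplicates but replicate numbers follow accession order only, so p-values measure the spread among these libraries. Alternatives were DESeq2 1.42.0, other scaling, no low-count filter, the groups of a comparison alone, a GC offset, and leaving out each library. An offset for GC content and exon length, and leaving out UPF1 siRNA R1881 replicates 1 and 2 together, were added after seeing the data. No replicate pair agreed within counting error (chi-square per degree of freedom 2.98 to 46.19). The model was also run on simulated counts with known changes in R1881 against vehicle under control siRNA. These counts held no GC trend and no outlying libraries, so that run cannot speak to either.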

Additional observations from a re-analysis of the deposited data

Results flagged for a closer look

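The R1881 response differed between UPF1 siRNA and control siRNA in 5 members, by edgeR's test of the interaction. The difference in log2 fold change was 0.95 for CCNB1, 0.80 for AURKA, 0.74 for RACGAP1, 0.68 for INCENP and 0.63 for NCAPD2, each a smaller fall under UPF1 siRNA. Of these, CCNB1 and AURKA were not called as changed by R1881 under UPF1 siRNA, and the other 3 fell under both siRNAs. Replicates 1 and 2 of UPF1 siRNA with R1881, in which AT-rich genes were low, entered each of these values. Without them, with 1 library left in that group, none was called, at differences of 0.82 for CCNB1, 0.85 for AURKA, 0.63 for RACGAP1, 0.62 for INCENP and 0.57 for NCAPD2.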

How the results depend on the processing

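Direction held for every member value called here except 1: BUB3 in UPF1 against RCOR1 siRNA in R1881 was at 0.01 with the GC content and length offset, against -0.32, and the cause was not tested. Counts of called members moved by over 1.5 times as follows. Without UPF1 siRNA R1881 replicates 1 and 2, which leaves 1 library in that group, UPF1 against control siRNA in R1881 gave 35, UPF1 against RCOR1 siRNA in R1881 gave 27 and the UPF1 siRNA interaction gave 0; the medians were then -1.60, -1.38 and -0.03, against -1.65, -1.28 and 0.02 with all libraries. With no low-count filter RCOR1 against control siRNA in vehicle gave 49, the UPF1 siRNA interaction 17 and the difference between UPF1 and RCOR1 siRNA responses 23. With the GC offset these were 50 for RCOR1 siRNA in vehicle, 3 for the RCOR1 siRNA interaction and 9 for the response difference. The GC content and length offset gave 50, 2 and 9 for the same results, 8 for the UPF1 siRNA interaction and 53 for UPF1 against RCOR1 siRNA in vehicle. Over all genes tested it gave 3203, 379, 1409, 1884 and 6649 calls, in that order. The groups of the contrast alone gave 1 for the UPF1 siRNA interaction, and DESeq2 gave 12 for the response difference. Over all genes tested these settings gave 168 and 754 calls. Leaving out single libraries gave 45 to 51 calls for R1881 under control siRNA, 53 to 57 under UPF1 siRNA and 35 to 39 under RCOR1 siRNA. For UPF1 siRNA it gave 47 to 58 in vehicle and 55 to 57 in R1881, and for RCOR1 siRNA 23 to 29 in vehicle and 4 to 7 in R1881. It gave 1 to 7 for the UPF1 siRNA interaction, 0 to 0 for the RCOR1 siRNA interaction, 26 to 43 and 48 to 53 for UPF1 against RCOR1 siRNA in vehicle and R1881, and 0 to 17 for the response difference. Of the single-member values under these omissions, 5006 kept their side of the threshold, 161 lost their call and 53 gained one. No paired analysis was possible because the labels give no replicate numbers that tie libraries across groups. Depth limits members with few reads, such as KIF18A with as few as 2 counts.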
